A study of Mus musculus with 2 samples.

Results

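The myeloid genes Lyz2, Cd52, Tspo, Lgals3bp, Fgl2 and Cd72 were followed in microglia that had or had not taken up labelled plasma protein. They are 6 of the 31053 genes counted, and they were chosen because earlier results of these same data showed them higher in the plasma-positive library. Their difference between the libraries is therefore given as a description. Microglia were taken from the hypothalamus of young wild-type mice 20 hours after an injection of plasma protein carrying a dye, and were separated by flow cytometry into cells with the dye (plasma-positive) and cells without it (plasma-negative). Both groups share the genotype, the injection and the time, the mice were pooled, and an uninjected group was not analysed here. Each group is 1 library of the Chromium Single Cell 3′ v3.1 kit, a droplet method that counts each captured RNA molecule by a unique molecular identifier (UMI). No test between the groups is possible with 1 library each. Differences between mice, sorts and library preparations cannot be told apart from a difference between cells with and without the dye. The cells were sorted by the dye they held, so states present before uptake cannot be told apart from changes after it. Intervals are 95% intervals, exact except where an approximate one is named, and cover counting error only.

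Microglia are the resident macrophages of the brain. Macrophages that take up material or receive inflammatory signals change the amounts of lysosomal enzymes, surface receptors and secreted proteins they make, and these 6 genes belong to different branches of that response. Lyz2 encodes the lysozyme of macrophages, which cleaves bacterial cell walls. Cd52 encodes a very short surface glycoprotein held by a lipid anchor, and Cd72 a C-type lectin-like receptor with an inhibitory tail, best known from B cells. Tspo encodes a cholesterol-binding protein of the outer mitochondrial membrane, the target of radioligands used to image glial activation. Lgals3bp encodes a secreted glycoprotein that binds galectins, and Fgl2 a fibrinogen-like protein found both secreted and at the membrane. Apoe, the apolipoprotein used here as the reference for co-expression, is a lipid carrier that activated microglia make in quantity.

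On GRCm38 with GENCODE M21, all of these are protein-coding genes. Lyz2 lies on the minus strand at chr10:117277331-117282321, Cd52 on the minus strand at chr4:134082448-134095082, and Cd72 on the minus strand of the same chromosome at chr4:43446462-43454628. Tspo lies on the plus strand at chr15:83563592-83574203, Lgals3bp on the minus strand at chr11:118392751-118402092, and Fgl2 on the plus strand at chr5:21372642-21378374. The build used for counting was not given in the sources used here, and these coordinates serve only to place the genes.

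RefSeq promoter sequence (GRCm38.p6) was matched for 4 of the 6 genes, with none for Cd52 and Tspo. The 120 bases before the annotated start are shown 5′ to 3′ on the strand of the gene, because these genes were higher in the same library. The windows are chr10:117282273-117282392 for Lyz2, chr11:118401960-118402079 for Lgals3bp, chr5:21372553-21372672 for Fgl2 and chr4:43454627-43454746 for Cd72. The RefSeq start sites of all 4 genes lie inside the GENCODE gene bodies given above. Capitals mark matches to the motifs searched.
Lyz2: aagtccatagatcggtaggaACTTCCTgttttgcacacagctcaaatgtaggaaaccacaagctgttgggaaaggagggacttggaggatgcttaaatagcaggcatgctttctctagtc
Lgals3bp: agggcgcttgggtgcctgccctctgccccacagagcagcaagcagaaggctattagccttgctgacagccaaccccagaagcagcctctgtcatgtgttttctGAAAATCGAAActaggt
Fgl2: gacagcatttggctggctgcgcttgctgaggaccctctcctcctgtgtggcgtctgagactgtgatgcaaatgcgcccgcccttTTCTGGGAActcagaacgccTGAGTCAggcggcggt
Cd72: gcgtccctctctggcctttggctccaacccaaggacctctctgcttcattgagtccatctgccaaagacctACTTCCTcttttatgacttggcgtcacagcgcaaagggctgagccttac

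Motifs were searched on both strands, and each share below is over 32851 RefSeq promoter windows of the same length. The ETS motif of the PU.1 type, AGGAAGT, was found on the reverse strand at -100 in Lyz2 and at -49 in Cd72, and in 4.27% of all windows. The interferon-gamma activated site TTCNNNGAA was found at -36 in Fgl2 and in 3.15% of all windows. The AP-1 motif TGANTCA was found at -16 in Fgl2 and in 3.41% of all windows. The interferon-stimulated response element, GAAA repeated after a spacer of 2 bases, was found in none of the 4 windows and in 1.22% of all windows. A form with a spacer of 3 bases was searched after the Lgals3bp sequence had been seen, and it lies at -17 there and in 1.09% of all windows. The AP-1 and interferon-gamma site matches in Fgl2 do not overlap. A match describes letters in the window and does not show that a factor binds there.

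After removal of cells with under 500 UMIs, under 300 genes or over 10% mitochondrial UMIs, 9860 plasma-negative and 10362 plasma-positive cells remained, with 34534518 and 41984977 UMIs. The median cell held 3270.5 and 3753 UMIs. To compare shares of cells at 1 depth, each cell was also thinned to 1000 UMIs, which left out 796 plasma-negative and 603 plasma-positive cells. The label microglia was checked against 12 markers, and 99.8% of cells in both libraries carried at least 4 of them. Levels are given as CPM, counts per 1000000 UMIs of the library. UMIs are counted near the 3′ end, so a CPM is not divided by gene length.

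All 6 genes were higher in the plasma-positive library, by 1.26-fold to 2.10-fold. Of all 8355 genes at 10 CPM or more in at least 1 library, 0.934% had a log2 ratio of 0.32 or more, and 6 of the 6 members were among them. At 1.5-fold or more higher the share was 0.323% with 3 members, and at 2-fold it was 0.227% with 2 members. The shares lower by as much were 0.862%, 0.0239% and 0%. Over the 3540 genes at 50 CPM or more, which include 4 members, the shares higher were 0.367%, 0.141% and 0.113% and those lower 0.169%, 0% and 0%. The members were chosen on this contrast, so nothing is read from these counts. The median log2 ratio was 0.59 over the members and -0.04 over all genes compared, whose quartiles were -0.11 and 0.04. Counted from the highest ratio, Fgl2 stood at position 18, Cd72 at 19, Lgals3bp at 26, Lyz2 at 34, Tspo at 48 and Cd52 at 76, and Apoe stood at 3.

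**Figure D1:**
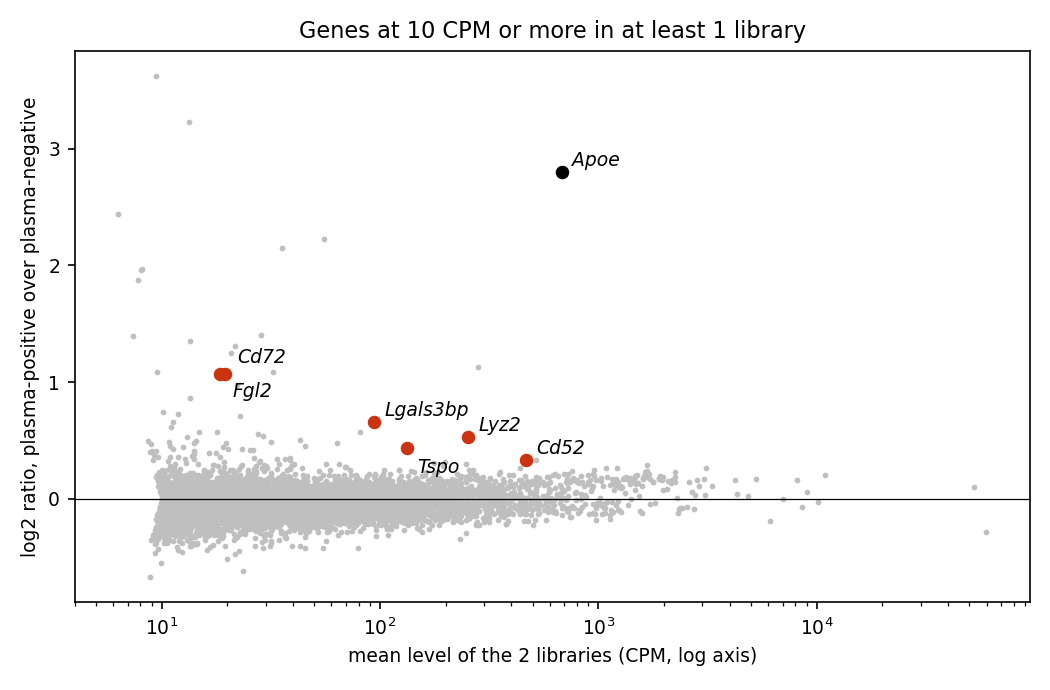
Each grey point is 1 of 8355 genes at 10 CPM or more in at least 1 library. The x axis is the mean level of the libraries in CPM on a log axis and the y axis the log2 ratio of plasma-positive to plasma-negative; the 6 genes are in red, between 0.33 and 1.07, and Apoe is in black at 2.80.

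Lyz2, the lysosomal enzyme, gave 7145 UMIs in the plasma-negative and 12516 in the plasma-positive library. Its level was 207 CPM (202 to 212) against 298 CPM (293 to 303), a ratio of 1.44 (1.40 to 1.48). A Lyz2 UMI was seen in 16.8% (16.0 to 17.6) of plasma-negative cells thinned to 1000 UMIs and in 21.4% (20.6 to 22.2) of plasma-positive ones, and without thinning 38.8% and 48.7% did. Cells with at least 3 Lyz2 UMIs in the thinned copy made up 0.607% and 1.35%. Lyz2 lies 5475 bases from its paralogue Lyz1, the lysozyme of the gut, and their transcripts are 92.0% identical over the alignment and 93.8% over the last 300 bases. Lyz1 had 0 UMIs in the plasma-negative and 2 in the plasma-positive library. How reads shared between such copies were counted was not given in the sources used here, so a part of Lyz2 reads could have been left out of the counts.

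Cd52, the anchored surface glycoprotein, was the most abundant member in CPM and the one with the smallest ratio. Its 14249 and 21754 UMIs gave 413 CPM (406 to 419) in plasma-negative and 518 CPM (511 to 525) in plasma-positive cells, a ratio of 1.26 (1.23 to 1.28). A UMI was seen in 30.6% and 34.9% of thinned cells and in 59.7% and 68.9% of unthinned cells. Cd72, the lectin-like receptor, was scarce: 434 and 1108 UMIs, or 12.6 CPM (11.4 to 13.8) and 26.4 CPM (24.9 to 28.0). Its ratio was 2.10 (1.88 to 2.35), and it was seen in 1.13% and 2.36% of thinned cells and in 3.72% and 7.94% of unthinned cells. Of these surface genes the scarce one had the larger ratio, and no interval of one overlapped that of the other.

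Tspo, the mitochondrial membrane protein, gave 3895 and 6418 UMIs, or 113 CPM (109 to 116) in plasma-negative and 153 CPM (149 to 157) in plasma-positive cells. The ratio was 1.36 (1.30 to 1.41). A UMI was seen in 10.6% and 13.3% of thinned cells and in 28.5% and 38.2% of unthinned cells.

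The secreted proteins both had ratios above 1.5. Lgals3bp gave 2514 and 4809 UMIs, or 72.8 CPM (70.0 to 75.7) and 115 CPM (111 to 118), a ratio of 1.57 (1.499 to 1.65). Fgl2 gave 414 and 1057 UMIs, or 11.99 CPM (10.9 to 13.2) and 25.2 CPM (23.7 to 26.7), a ratio of 2.10 (1.87 to 2.36). The share of thinned cells with a UMI was 6.22% and 9.58% for Lgals3bp and 1.09% and 2.38% for Fgl2, and without thinning 19.6% and 28.6%, and 3.70% and 8.07%. Fgl2 and Cd72 lay at nearly the same level and ratio in CPM, and their intervals overlapped in both libraries. In order of CPM the members ran Cd52, Lyz2, Tspo, Lgals3bp, Cd72 and Fgl2 in both libraries, and only the intervals of the last pair overlapped.

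No cell type that should lack these genes was present in number, so the share of cells with a UMI that free RNA gives was not measured. The ratio of thinned shares, plasma-positive over plasma-negative, with approximate intervals from the log scale, was 1.27 (1.20 to 1.35) for Lyz2, 1.14 (1.09 to 1.19) for Cd52, 1.26 (1.16 to 1.36) for Tspo and 1.54 (1.39 to 1.70) for Lgals3bp. It was 2.18 (1.72 to 2.75) for Fgl2 and 2.09 (1.66 to 2.64) for Cd72. The variance of the thinned count over its mean was 1.27 and 1.52 for Lyz2, 1.26 and 1.40 for Cd52, 1.05 and 1.16 for Tspo, and 1.08 and 1.19 for Lgals3bp in plasma-negative and plasma-positive cells. It was 1.07 and 1.06 for Fgl2 and 1.08 and 1.17 for Cd72, against 6.41 and 27.7 for Apoe. Over the full counts, which also vary with the depth of the cell, the variance over the mean was 2.25 and 4.56 for Lyz2, 2.53 and 4.06 for Cd52, 1.37 and 2.001 for Tspo, 1.39 and 2.09 for Lgals3bp, 1.23 and 1.59 for Fgl2, and 1.76 and 2.43 for Cd72. The level intervals assume a value of 1, and so are too narrow.

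**Figure D2:**
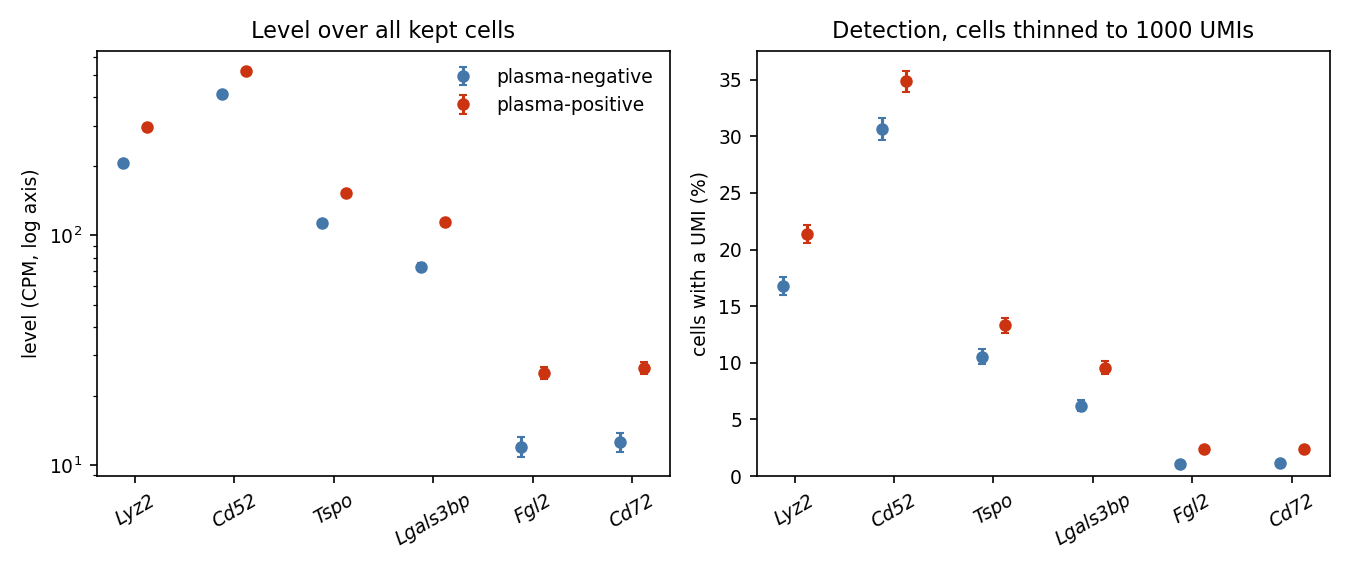
Left, the level of each gene in CPM on a log axis; right, the percentage of cells with a UMI after thinning to 1000 UMIs. Points are the plasma-negative (blue) and plasma-positive (red) library and bars exact 95% counting intervals; the red point is above the blue one for all 6 genes in both panels.

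Apoe itself went from 5916 to 49960 UMIs, or 171 CPM to 1190 CPM, a ratio of 6.95. No Apoe UMI was seen in 92.1% of thinned plasma-negative cells and 81.3% of thinned plasma-positive cells, and 158 cells (1.74%) and 637 cells (6.53%) had at least 3. These classes are ranges of a count and not cell types. In both libraries every member was higher in the cells with at least 3 Apoe UMIs than in those with 0. The fold between these classes was 3.16 in plasma-negative and 3.91 in plasma-positive cells for Lyz2, 2.20 and 2.31 for Cd52, and 1.62 and 2.44 for Tspo. It was 1.65 and 3.02 for Lgals3bp, 2.12 (1.15 to 3.61) and 3.91 for Fgl2, and 2.37 (1.37 to 3.85) and 6.40 for Cd72. With classes from the unthinned Apoe count the fold of Cd72 was 1.54 and 3.94, more than 1.5 times lower in both libraries. The plasma-positive cells with at least 3 Apoe UMIs held 23.0% of the Lyz2 UMIs found in plasma-positive cells of at least 1000 UMIs. Counted likewise, they held 15.6% of Cd52, 16.3% of Tspo, 19.4% of Lgals3bp, 23.3% of Fgl2 and 32.9% of Cd72. Among plasma-negative cells of at least 1000 UMIs the same class held between 2.68% (Tspo) and 4.91% (Lyz2).

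The members also differed between the libraries among cells with no Apoe UMI. There Lyz2 was at 193 CPM in plasma-negative and 232 CPM in plasma-positive cells, a ratio of 1.20 (1.16 to 1.24). The ratio was 1.15 for Cd52, 1.20 for Tspo, 1.34 for Lgals3bp, 1.72 for Fgl2 and 1.43 for Cd72. A cell with no Apoe UMI after thinning can still express it: the Apoe level of this class was 42.9 and 86.1 CPM over the full counts. In cells with at least 3 Apoe UMIs the ratio was 1.49 for Lyz2, 1.20 for Cd52, 1.81 for Tspo and 2.46 for Lgals3bp. It was 3.17 (1.85 to 5.88) for Fgl2 and 3.85 (2.37 to 6.68) for Cd72, from 14 and 17 plasma-negative UMIs. The Apoe level within that class also differed, at 4554 and 13227 CPM. In the middle class, cells with 1 to 2 Apoe UMIs, the Apoe level was close, at 832 and 873 CPM. There the ratio was 1.09 (0.998 to 1.18) for Lyz2, with no difference detectable, 1.14 for Cd52, 1.34 for Tspo, 1.54 for Lgals3bp, 1.54 (1.09 to 2.22) for Fgl2 and 2.84 (1.81 to 4.68) for Cd72. Plasma-negative Cd72 was at 9.64 CPM in this class and 12.5 CPM in cells with 0 Apoe UMIs.

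Narrower Apoe ranges were compared for that reason. Among cells with 3 to 9 Apoe UMIs, 145 plasma-negative and 385 plasma-positive cells, Apoe was at 3614 and 4865 CPM. There the ratio of Cd52 was 0.997 (0.899 to 1.11), with no difference detectable, and that of Lyz2 was 1.22 (1.08 to 1.39). Tspo was at 1.40, Lgals3bp at 2.05 (1.57 to 2.71), Fgl2 at 2.66 (1.47 to 5.30) and Cd72 at 2.95 (1.70 to 5.53). Above that range the plasma-negative library held few cells, 10 with 10 to 19 and 3 with 20 or more, against 126 and 126. At 10 to 19 Apoe UMIs Lyz2 was at 1244 CPM in plasma-negative and 1016 CPM in plasma-positive cells, a ratio of 0.816 (0.599 to 1.14). The ratio of Tspo there was 5.03 (1.70 to 24.5), from 3 plasma-negative UMIs. In the plasma-positive cells with 20 or more Apoe UMIs, Lyz2 reached 1418 CPM, Cd52 1491, Tspo 444, Lgals3bp 413, Fgl2 113 and Cd72 184.

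**Figure D3:**
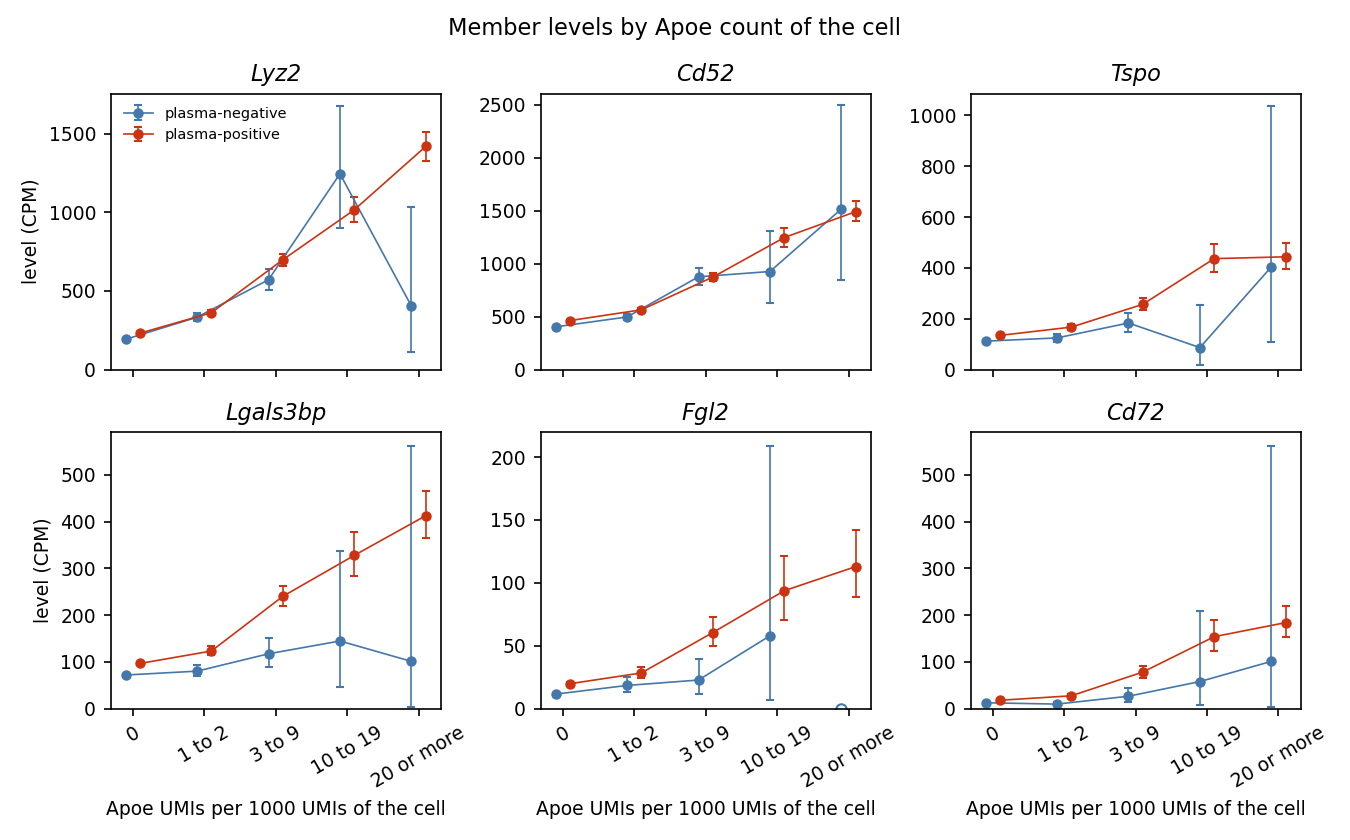
The level of each gene in CPM (y axis) in cells grouped by Apoe UMIs per 1000 UMIs of the cell (x axis), with exact 95% Poisson intervals and open points for a count of 0. In plasma-positive cells (red) Cd72 goes from 17.8 CPM at 0 to 184 CPM at 20 or more Apoe UMIs; the plasma-negative library (blue) holds 10 and 3 cells in the last ranges.

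Interferon-response genes, which antiviral cytokines switch on, were used as a second axis through a list of 23 genes that holds no member. The list was chosen with earlier results of these data known, so its differences are given as a description. Of all 8355 genes at 10 CPM or more in at least 1 library, 35.7% were higher in plasma-positive cells. Among list genes at that minimum, 16 of 16 were higher, with a median log2 ratio of 1.28. Of these, 5 passed the minimum only in the plasma-positive library, where they had to be higher, and the median was 0.98 over the 11 that passed in both and 0.57 at a minimum of 50 CPM. The range ran from Bst2, a membrane tether of virus particles, at 0.32 (176 to 220 CPM) to Ifi207, a nuclear DNA sensor relative and 1 of those 5, at 2.44. A UMI of the list was seen in 31.4% of thinned plasma-negative cells and 37.6% of thinned plasma-positive cells, and 2.48% and 7.18% had at least 3. Between cells with at least 3 and with 0 such UMIs, Fgl2 differed by 4.73-fold in plasma-negative and 6.43-fold in plasma-positive cells. Lgals3bp differed by 3.34-fold and 4.64-fold, Cd72 by 2.18-fold and 4.94-fold, Tspo by 2.06-fold and 2.89-fold, Cd52 by 1.55-fold and 2.16-fold, and Lyz2 by 1.19-fold and 2.03-fold.

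Cells were then crossed by both axes. Cells with neither an Apoe nor an interferon UMI made up 63.3% of the thinned plasma-negative library and 52.3% of the plasma-positive one, and cells with both made up 2.61% (237 cells) and 8.61% (840 cells). Lyz2 followed Apoe more than the interferon list: over cells with neither, it was 1.99-fold and 2.11-fold higher in cells with Apoe alone, and 1.10-fold and 1.21-fold in cells with interferon genes alone. Lgals3bp was the other way round, at 1.07-fold and 1.43-fold with Apoe alone and 1.44-fold and 1.71-fold with interferon genes alone. Cd72 with Apoe alone was at 0.89-fold (0.51 to 1.46) in plasma-negative and 2.07-fold in plasma-positive cells. In plasma-positive cells with both, the fold over neither was 3.20 for Lyz2, 2.20 for Cd52, 2.56 for Tspo, 3.52 for Lgals3bp, 4.72 for Fgl2 and 6.37 for Cd72, each above the fold with either axis alone. In plasma-negative cells with both, it was 2.24 for Lyz2, 2.22 for Fgl2 and 2.15 for Cd72. These classes differ in Apoe level too: plasma-positive cells held 8510 CPM of Apoe with both and 2769 CPM with Apoe alone, and plasma-negative cells 1895 and 1409 CPM.

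**Figure D4:**
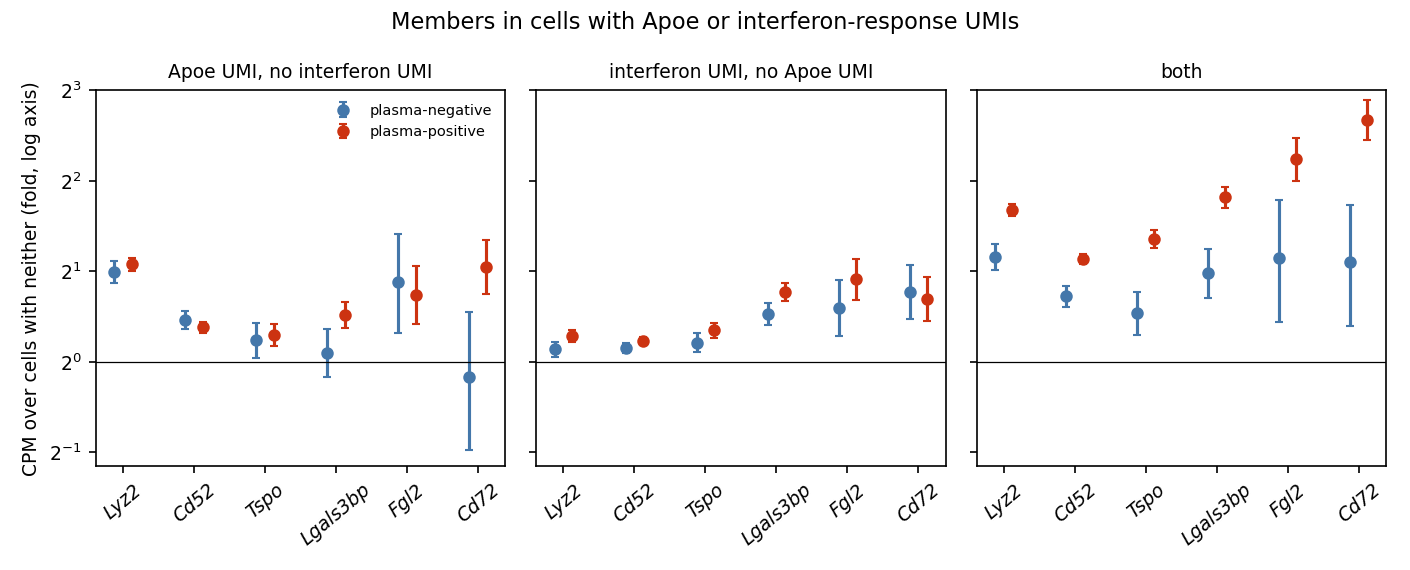
Fold of each gene over cells with neither an Apoe nor an interferon UMI (y axis, log axis) in cells with Apoe alone, interferon genes alone and both, with exact 95% counting intervals; blue is plasma-negative and red plasma-positive. With Apoe alone, Lyz2 is at 1.99 and 2.11, Fgl2 at 1.84 and 1.67 and Cd72 at 0.89 and 2.07. The highest point is Cd72 in plasma-positive cells with both, at 6.37.

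In cells with neither, the ratio between the libraries was 1.15 (1.10 to 1.20) for Lyz2, 1.12 (1.08 to 1.15) for Cd52, 1.15 (1.09 to 1.22) for Tspo, 1.22 (1.13 to 1.31) for Lgals3bp, 1.51 (1.27 to 1.81) for Fgl2 and 1.42 (1.19 to 1.70) for Cd72. With these classes weighted as in the plasma-negative library, the log2 ratio over cells of at least 1000 UMIs went from 0.52 to 0.29 for Lyz2, from 0.32 to 0.20 for Cd52 and from 0.43 to 0.29 for Tspo. It went from 0.65 to 0.45 for Lgals3bp, from 1.05 to 0.78 for Fgl2 and from 1.07 to 0.69 for Cd72. Between 50.7% (Lyz2) and 67.2% (Fgl2) of the difference in CPM was thus left with equal class shares. For Apoe 30.3% was left, but the classes were drawn from its own counts, so the members are not set against it. With 5 classes of Apoe alone weighted alike, an alternative added after seeing the data, the values were 0.25, 0.19, 0.29, 0.46, 0.79 and 0.64 in the same order.

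**Figure D5:**
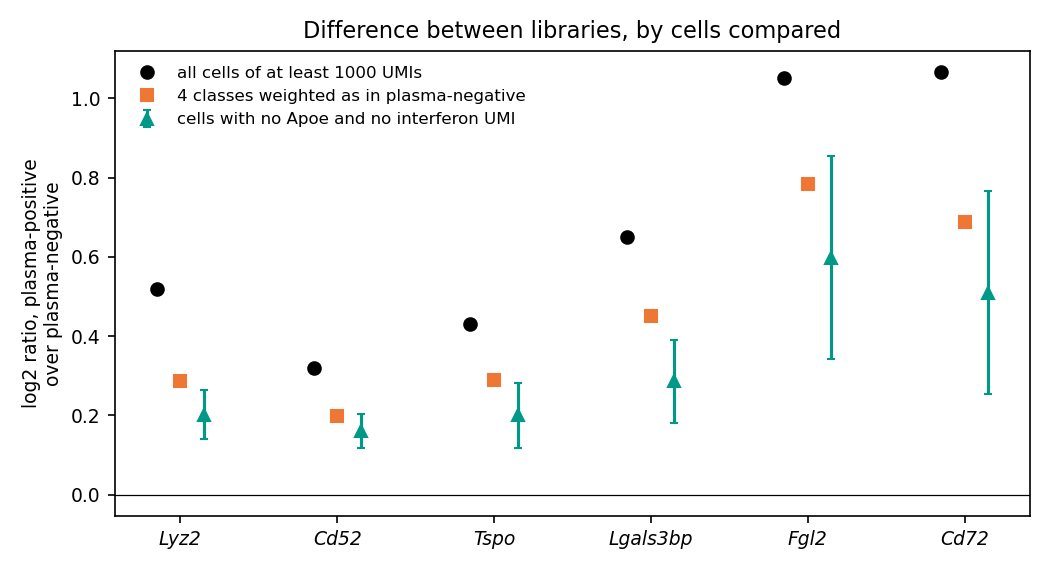
The log2 ratio of plasma-positive to plasma-negative (y axis) for each gene over all cells of at least 1000 UMIs (circles), with the 4 Apoe and interferon classes weighted as in plasma-negative (squares), and in cells with neither (triangles, with 95% counting intervals). All points lie above 0, and the square is highest for Fgl2, at 0.78.

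Co-detection in thinned cells was set against the number expected if genes were detected independently. With Apoe, the observed number over the expected one in plasma-positive cells was 1.64 (1.52 to 1.77) for Lyz2, 1.30 for Cd52, 1.32 for Tspo, 1.52 for Lgals3bp, 1.75 (1.38 to 2.19) for Fgl2 and 2.21 (1.79 to 2.70) for Cd72. In plasma-negative cells it was 1.64 for Lyz2, 1.23 (1.08 to 1.38) for Cd52, 1.19 (0.96 to 1.47) for Tspo, 1.13 (0.84 to 1.48) for Lgals3bp, 1.41 (0.70 to 2.52) for Fgl2 and 0.996 (0.43 to 1.96) for Cd72, the last from 8 cells. Only the intervals of Lyz2 and Cd52 lay above 1 there. Among the 15 pairs of members, the interval lay above 1 for 3 in plasma-negative and 14 in plasma-positive cells. Fewer co-detections were expected in plasma-negative cells, which widens the intervals there, so these counts are not set against each other. The share of other gene pairs with an interval above 1 was not computed, so the counts are not read as a result. The plasma-negative values ran from 0.86 (0.39 to 1.63) for Tspo with Fgl2 to 2.69 (0.56 to 7.87) for Fgl2 with Cd72. The highest value in plasma-positive cells was that of Lgals3bp with Fgl2, 52 cells against 22.2 expected, 2.34 (1.75 to 3.07). In plasma-negative cells that pair was seen in 11 cells, at 1.79 (0.89 to 3.20). Lyz2 and Cd52, the most abundant pair, were close in both libraries at 1.20 and 1.21. A thinned cell with UMIs of at least 3 members was found 164 times (1.81%, 1.55 to 2.11) in plasma-negative and 434 times (4.45%, 4.05 to 4.88) in plasma-positive cells, and no cell had all 6. Each member was also detected in a larger share of plasma-positive cells, which by itself raises this number. The number expected from that was not computed.

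The genes with the most similar pattern over thinned cells were taken by the smaller of the Pearson r values of the libraries, over 3540 genes at 50 CPM or more. For Lyz2 they were Apoe (r = 0.12 in plasma-negative and 0.26 in plasma-positive), the complement gene C1qb (0.12 and 0.13) and the lysosomal protease gene Ctss (0.10 and 0.17). For Lgals3bp they were the interferon-response genes Ifitm3 (0.07 and 0.19) and Ifi27l2a (0.07 and 0.16), and Ly6e (0.04 and 0.08). For Fgl2 they were Ifi27l2a, Ifitm3 and the ribosomal gene Rpl34, and for Cd72 Ifi27l2a, Rpsa and Bola2, with every r at 0.12 or lower. For Cd52 the iron store gene Fth1 (0.11 and 0.18), Tmsb4x and Rps29 led, and for Tspo C1qb, Tmsb4x and Ifi27l2a. The points share the library and a fixed depth, counts are sparse, and correlations this weak are not a finding.

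Depth and mitochondrial share differed between the libraries, with median mitochondrial shares of 1.08% and 1.27%. Within 5 bins of UMIs per cell, every member was higher in plasma-positive cells in 5 of 5 bins, with ratios from 1.31 to 1.49 for Lyz2, 1.14 to 1.28 for Cd52, 1.26 to 1.47 for Tspo, 1.42 to 1.67 for Lgals3bp, 1.87 to 2.36 for Fgl2 and 1.57 to 2.51 for Cd72. Within 10 bins of mitochondrial share, every member was higher in 10 of 10 bins. The interval lay above 1 in 10 of 10 bins for Lyz2, Tspo and Lgals3bp, in 9 for Cd52 and Fgl2 and in 8 for Cd72.

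Genes known to work with the members, or related to them, were compared where they reached 10 CPM in at least 1 library, a minimum at which 35.7% of all 8355 genes were higher and 64.3% lower in plasma-positive cells. Of the lipid-anchored, sialic acid-binding and other surface genes listed beside Cd52, 5 of 8 were higher and 3 lower, with a median log2 ratio of 0.06. Ly6a, an interferon-inducible surface marker, was highest at 0.75 (7.56 to 12.7 CPM) and passed the minimum only in the plasma-positive library, Cd33, a sialic acid-binding inhibitory receptor, was lowest at -0.08, and the most abundant, Ly86, which encodes a secreted partner of a surface receptor, went from 2638 to 2743 CPM. Of the partners of Tspo at the outer mitochondrial membrane, 7 of 10 were higher and 3 lower (median 0.03), from Atad3a at -0.15 to its ligand Dbi at 0.17. The channel gene Vdac2, the most abundant, went from 299 to 316 CPM. Of the phagocyte NADPH oxidase genes, which make superoxide, 3 of 6 were higher and 3 lower (median -0.00), from Ncf4 at -0.03 to Rac2 at 0.10, with Cyba at 1237 and 1217 CPM. The catalytic subunit gene Cybb lay under 10 CPM in both libraries, at 2.52 and 9.003 CPM (87 and 378 UMIs), a ratio of 3.57 and a log2 ratio of 1.84 (1.498 to 2.19).

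For all genes compared, the share with an interval above or below 0 was not computed, so the counts of intervals given next are not read as results. Of the galectin genes and the integrin gene compared beside Lgals3bp, 2 of 3 were higher and 1 lower (median 0.01), with Lgals9 at 0.19, Lgals8 at -0.15 and Itgb1 at 373 and 376 CPM. Under the minimum, Lgals1 had a log2 ratio of 1.18 (0.73 to 1.64; 57 and 157 UMIs), Lgals3 of 0.54 (0.24 to 0.84; 144 and 254 UMIs) and Lgals4 of -0.56 (-1.12 to -0.01; 63 and 52 UMIs). Of the receptor genes and relatives of Fgl2, 5 of 5 compared had a log2 ratio above 0 (median 0.06), 4 of them with an interval above 0. The Fc receptor gene Fcgr4 was highest at 0.71 (17.4 to 28.5 CPM), the plasminogen activator gene Plau lowest at 0.02 (-0.10 to 0.15), and Fcgr3 went from 777 to 810 CPM. Of the genes of the Cd72 ligand and its signalling, 4 of 10 were higher and 6 lower (median -0.04). The ligand Sema4d was at 0.04 and the phosphatase Ptpn6, which the receptor recruits, at -0.06, between Ptpn11 at -0.19 and Plcg2 at 0.13, with the kinase Lyn at 874 and 883 CPM. Under the minimum, Cd22, another inhibitory receptor known from B cells, had a log2 ratio of 0.73 (0.47 to 0.99; 182 and 367 UMIs). Of the C-type lectin relatives of Cd72, 4 of 4 compared had a log2 ratio below 0 (median -0.08), 2 of them with an interval below 0, from Clec4a3 at -0.19 (148 to 130 CPM) to Clec4a2 at -0.01. Under the minimum, Cd69 had a log2 ratio of 1.86 (0.42 to 3.61) from 5 and 22 UMIs.

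In a general list of myeloid activation genes, 11 of the 20 compared were higher and 9 lower, with a median log2 ratio of 0.06; the members had been chosen for their difference and this list was not, so they are not set against each other. Its highest were the MHC chaperone gene Cd74 at 0.34 (29.7 to 37.6 CPM), Ms4a6c at 0.20 and the adaptor gene Tyrobp at 0.17. Its lowest were the endotoxin co-receptor gene Cd14 at -0.22 (408 to 351 CPM), the lipase gene Lpl at -0.13 and Cd9 at -0.11. Ctss, the most abundant, went from 7650 to 8573 CPM. For all genes under the minimum, the share with an interval above or below 0 was not computed, so the following count is not read as a result. Of the 14 list genes under the minimum in both libraries, 6 had an interval above 0 and 0 had one below. They were the cytokine gene Il1b (log2 ratio 1.49; 57 and 195 UMIs), Spp1 (1.34; 37 and 114 UMIs), Ms4a4c (1.246; 129 and 372 UMIs), the integrin gene Itgax (0.92; 115 and 264 UMIs), the protease inhibitor gene Cst7 (0.83; 193 and 418 UMIs) and the hyaluronan receptor gene Cd44 (0.72; 31 and 62 UMIs).

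Lyz2 is also a gene of monocytes and neutrophils and Cd72 of B cells, so markers of other cells were counted. The 9 monocyte markers summed to 5.01 CPM in plasma-negative and 5.19 CPM in plasma-positive cells, with Ly6c2 and Chil3 at 0. The 9 neutrophil markers summed to 0.927 and 0.977 CPM, with S100a8, S100a9 and Ly6g at 0. The 8 markers of border-associated macrophages, which line vessels and meninges, summed to 3.62 and 6.19 CPM. Of these, Mrc1 had 101 and 185 UMIs, a log2 ratio of 0.59 (0.23 to 0.96). Ms4a7 had 3 and 37 UMIs, a log2 ratio of 3.34 (1.68 to 5.68). Pf4 had 11 and 13 UMIs, and Lyve1 was at 0. The 7 B cell markers summed to 61.2 and 61.3 CPM, most of it from Cd79b, seen in 14.3% and 16.4% of cells, while Ms4a1, Pax5 and Fcmr were at 0. The 7 dendritic cell markers summed to 6.95 and 5.98 CPM, and the 7 T or NK cell markers to 0.0869 and 0.0238 CPM. Cells with at least 4 markers numbered 0 and 1 for border-associated macrophages, 3 and 1 for the oligodendrocyte lineage and 0 for every other non-microglial type listed. Outside the immune lists, Cnp (10.5% and 13.2% of cells) and Mag (9.83% and 11.3%), genes of myelin, were the markers seen in at least 10% of cells of a library.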

How the data were processed

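The deposited values are raw UMI counts per gene and cell in 1 matrix per library, made by the authors with Cell Ranger: version 6.1.2 per the file headers, 3.0.1 per the submitters' processing notes. The genome build, annotation and use of strand are not given in the sources used here, and cell barcodes were not used here. The members and all gene lists were chosen with earlier results of these data known. 1 gene of the C-type lectin list was not analysed here.

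Cells were kept from 500 UMIs and 300 genes upward and up to 10% mitochondrial UMIs (9860 plasma-negative and 10362 plasma-positive). No doublets were removed, because the automatic Scrublet threshold (scanpy 1.11.5) called 0 cells in both libraries and so had not worked; as an alternative, the 778 and 859 cells with the highest scores were removed, 7.89% and 8.29%. Counts were summed over cells, divided by the library's total and compared as CPM with no pseudocount, for genes at 10 CPM or more in at least 1 library. With 1 library per group no test was run. Sums carry exact Poisson, shares exact binomial (Clopper-Pearson) and ratios exact conditional binomial 95% intervals, and ratios of shares approximate normal intervals on the log scale (scipy 1.17.1, Python 3.11.15). Shares and Apoe or interferon classes come from cells thinned to 1000 UMIs with a fixed seed, and levels within classes from the full counts.

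Beside the members and Apoe, the genes named are those with the highest and lowest log2 ratio and the most abundant gene of each related list (up to 3 at either end of the general list), the 3 genes most similar to each member, and markers of other cells seen in at least 10% of cells. Outside that rule, some genes were picked with their values already seen. They were Lyz1, Sema4d, Ptpn6, Mrc1, Ms4a7, Pf4, the list genes under the minimum and the markers listed at 0. In the closing section they were Mmp12, Lgals3, Cst7, Ftl1 and Cd63. The alternatives were TMM scaling (edgeR 4.0.16, used only for its scaling factors), other cell filters, doublet removal, removal of cells with 2 or more UMIs of markers of other immune cells, other thinning depths and seeds, unthinned Apoe classes and a 50 CPM minimum; a minimum of 10 CPM in both libraries was added after seeing the data. The summing and interval code was tested on simulated data.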

Additional observations from a re-analysis of the deposited data

How the results depend on the processing

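Of 141 values recomputed under alternatives, 122 stayed within a set limit, 19 moved and 0 changed direction. The limit was the interval of the value reported, or for numbers of genes a 1.5-fold change. Class-weighted ratios and list medians had no interval of their own. They took the width from the unweighted ratios and from single genes of the list. Over 9 alternatives the log2 ratio of levels ran from 0.48 to 0.57 for Lyz2, 0.30 to 0.37 for Cd52, 0.40 to 0.48 for Tspo, 0.61 to 0.71 for Lgals3bp, 1.00 to 1.16 for Fgl2 and 0.96 to 1.13 for Cd72. Lyz2 moved to 0.48 without cells holding markers of other immune cells, which were 460 (4.67%) and 585 (5.65%) of cells, and Cd52 to 0.37 with TMM scaling, which shifts every gene by 0.04. With another seed the ratio of shares of Cd52 was 1.19 and its fold by Apoe class in plasma-negative cells 1.82. With Apoe classes from unthinned counts, the fold of cells with 3 or more over 0 Apoe UMIs was lower: 2.36 in plasma-negative and 3.09 in plasma-positive cells for Lyz2, 1.55 and 1.84 for Cd52, 1.29 and 1.89 for Tspo, 1.27 and 2.20 for Lgals3bp, 1.91 and 2.85 for Fgl2, and 1.54 and 3.94 for Cd72. At a 50 CPM minimum fewer genes were compared, and 13, 5 and 4 genes passed a log2 ratio of 0.32, 1.5-fold and 2-fold, against 78, 27 and 19. The median log2 ratio was then 0.012 for the surface genes beside Cd52 and 0.57 for the interferon list. The cause of the other moves was not tested.

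No paired analysis was possible because a group is 1 library and no result came from a test, and leaving out a replicate was not possible either. Fgl2 and Cd72 rest on 414 and 434 UMIs in the plasma-negative library, which limits their comparison within classes of few cells.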

Other observations

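The cells with the highest counts of a member were looked at one by one, after the main values were known. The highest Lyz2 count was 16 UMIs in a plasma-negative and 114 UMIs in a plasma-positive cell, the latter 0.911% of the gene's UMIs in its library. That cell held 9888 UMIs and also carried 13 UMIs of Lgals3, 13 of Cst7, 243 of Ftl1 and 58 of Cd63, genes of lysosomes, iron storage and activated phagocytes. It had 8 of the 12 microglia markers and 1 marker of border-associated macrophages.

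In the plasma-positive library a single cell of 14090 UMIs held both the highest Cd52 count, 83 UMIs, and the highest Cd72 count, 26 UMIs. It carried 41 UMIs of Lpl, a lipoprotein lipase, and 55 of Mmp12, a macrophage elastase, with 1 of Apoe. In the plasma-negative library the cell with the highest Cd72 count, 13 UMIs, held 81 UMIs of Lpl, 38 of Lgals3 and 16 of Mmp12, with 6 of Apoe.

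Cells were therefore grouped by Lpl, an alternative added after seeing the data and at 2 thresholds. At 3 or more Lpl UMIs in the thinned copy, tried first, there were 14 plasma-negative and 6 plasma-positive cells, and Cd72 was 25.5-fold (16.3 to 38.2) and 21.1-fold (13.7 to 31.1) higher there than in cells with none. All 26 Cd72 UMIs of the plasma-positive class came from the single cell named above, and without it the class had 0. In the plasma-negative class the fold without its highest cell was 16.1. Because so few cells were in that class, 1 or more Lpl UMIs was tried second, with 206 and 235 cells. There Cd72 was 5.65-fold (4.15 to 7.57) higher in plasma-negative and 2.88-fold (2.26 to 3.62) in plasma-positive cells, and 4.35-fold and 1.96-fold without the highest cell. At that threshold Cd52 was 1.54-fold and 1.58-fold higher, and Fgl2 was at 1.01-fold (0.48 to 1.88) and 1.05-fold (0.70 to 1.52). Both thresholds were set on the same cells that drew attention to Lpl, so these values describe these libraries only.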
